A study of Mus musculus with 6 samples.

Results

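The F-box proteins and cullins of a mouse podocyte line were compared between RNA co-precipitated with Staufen2 and total input RNA. Members were chosen by gene symbol, as cullins (Cul with a number), Rbx1, Skp1a, Skp2, and F-box genes with Fbxl, Fbxw or Fbxo and a number. This gave 80 of the 19938 genes that had a probe set with a single symbol, namely 8 cullins, Rbx1, 18 Fbxl genes with Skp2 among them, 17 Fbxw genes and 36 Fbxo genes. The annotation used here lists the gene called Skp1a in that rule as Skp1, so it was not counted among the 80, and its values are given beside them.

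The data were 6 arrays, 3 of input RNA and 3 of RNA from the pulldown. All samples came from an immortalized mouse podocyte line after differentiation. The cells were grown with gamma-interferon at a permissive temperature and differentiated at a non-permissive temperature without it. The groups thus shared the cell line and culture conditions, and differed in that the pulldown RNA was taken from cytoplasmic lysate, cleared on protein G beads, with an antibody against Staufen2. Equal amounts of RNA (100 ng) were amplified from either source, so a value is relative to the other RNAs of its sample and carries no total amount. In bulk samples such as these, fewer cells of a type and less RNA per cell cannot be told apart. A control-antibody pulldown was not analysed here, and differences therefore describe recovery relative to input. The labels name 1 line and do not state whether the replicates are separate cultures, and the p-values reflect the spread of these 6 arrays, possibly a technical one.

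Values are the deposited log2 values of 1 probe set per gene, and each difference is the pulldown mean minus the input mean (log2), with its moderated standard error (SE). A gene was called higher or lower at a Benjamini-Hochberg adjusted p under 0.05, taken over all 19938 genes with limma's moderated test. The array medians lay between 6.53 and 6.54, and arrays correlated at 0.998 to 0.999 (Pearson) within groups and at 0.982 to 0.983 between them. Of 7 measured podocyte markers, Wt1 (9.57 in the input), Synpo (8.29), Actn4 (13.09) and Cd2ap (11.98) lay above the median of all values (6.54), whereas Nphs1 (6.30), Podxl (6.04) and Tcf21 (5.91) lay below it. Markers of other cell types were read in the same way. Cd14 (7.68 in the input) and Cd68 (7.38) of the 4 immune markers lay above that median and Ptprc (5.64) and Adgre1 (5.15) below it. Of 4 tubular markers Lrp2 (9.36), Aqp1 (7.12) and Cubn (7.06) lay above it and Slc12a1 (5.29) below it. Of 4 markers of mesangial cells and fibroblasts, Acta2 (13.57) and Pdgfrb (11.45) lay above it, Des (6.48) close to it and Itga8 (5.21) below it, and all 5 endothelial markers lay below it. The summed log2 level of the podocyte markers was 61.0 to 61.3 in the input arrays and 62.9 to 63.1 in the pulldown arrays. That of the immune markers was 25.8 to 26.0 in the input and at most 25.3 in the pulldown. The input and pulldown ranges were 28.7 to 29.0 and 29.2 to 29.5 for the tubular, 36.7 and 37.0 to 37.4 for the mesangial and fibroblast, and 27.8 to 28.1 and 28.3 to 28.4 for the endothelial markers. The part of these lists in the results was not tested.

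Cullins are the elongated scaffolds of the largest family of ubiquitin ligases. At one end a cullin holds a RING protein, usually RBX1, which recruits a ubiquitin-conjugating enzyme, and at the other end it holds an adaptor with a substrate receptor. CUL1 uses SKP1 as adaptor, and SKP1 in turn binds the F-box of an F-box protein, which selects the protein to be ubiquitinated. F-box proteins are sorted by their substrate-binding part into FBXW (WD40 repeats), FBXL (leucine-rich repeats) and FBXO (other domains). Attachment of the small protein NEDD8 activates the cullin, the COP9 signalosome removes NEDD8 again, and CAND1 exchanges the receptors.

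Of the 80 members, 39 were higher in the pulldown, 15 were lower and 26 did not pass the test. Among all 19938 genes, 31.3% were called higher and 17.3% lower, and 48.7% were called in either direction, so the members' share of higher calls (48.8%) lay above that of all genes and their share of lower calls (18.8%) close to it. The median difference was 0.10 for the members and 0.04 for all genes. The values of the groups did not overlap in 58 members, 72.5% of them, against 55.9% of all genes. Among members above the median of all values the share was 82.8%, close to the 78.2% of all genes above it. Fbxw7 was the 1 member with a difference of at least 2-fold upwards, a size reached by 1.67% of all genes, and no member was lower by as much, a size reached by 2.01%. After cyclic loess normalization this turned round, with Fbxw7 at 0.94, Fbxo6 at -1.06 and Rbx1 at -1.02. The lowest difference, that of Fbxo6, was -0.95.

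Signal level went with these counts. A mean above the median of all values was found for 64 members, of which 36 were higher and 15 lower, and of the 12009 genes above that level 45.9% were higher and 26.8% lower. Of the 16 dimmer members 3 were higher (18.75%) and 0 lower, against 9.2% and 3.1% of all genes below that level. The part of signal level in the members' counts was not tested. After cyclic loess normalization 34 members were higher and 23 lower, and 25.7% of all genes were higher and 22.9% lower. Higher calls then made up 59.6% of the members' calls, against 72.2% with the deposited values. Among all genes the share of higher calls in the calls fell likewise, from 64.4% to 52.9%. With each array left out in turn, 46 members, 34 higher and 12 lower, were called in every one of the 6 fits. The other 8 calls (Fbxl5, Fbxl19, Fbxo3, Fbxo25, Fbxo44, Fbxo47, Fbxw5 and Fbxw26) were lost in at least 1 of these fits. Fbxo3, Fbxo47, Fbxw5 and Fbxw26 each passed in only 1 of the 6, without pulldown replicate 2 for Fbxo3 and without pulldown replicate 1 for the other 3, and their adjusted p reached 0.14, 0.13, 0.14 and 0.12. Fbxl19 was lost without pulldown replicate 1 (adjusted p = 0.053) and without pulldown replicate 3 (0.076), and so was Fbxo25 (0.051 in both cases). Fbxl5 was lost without input replicate 1 (0.076) or 3 (0.099) and Fbxo44 without input replicate 3 (0.058).

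**Figure D1:**
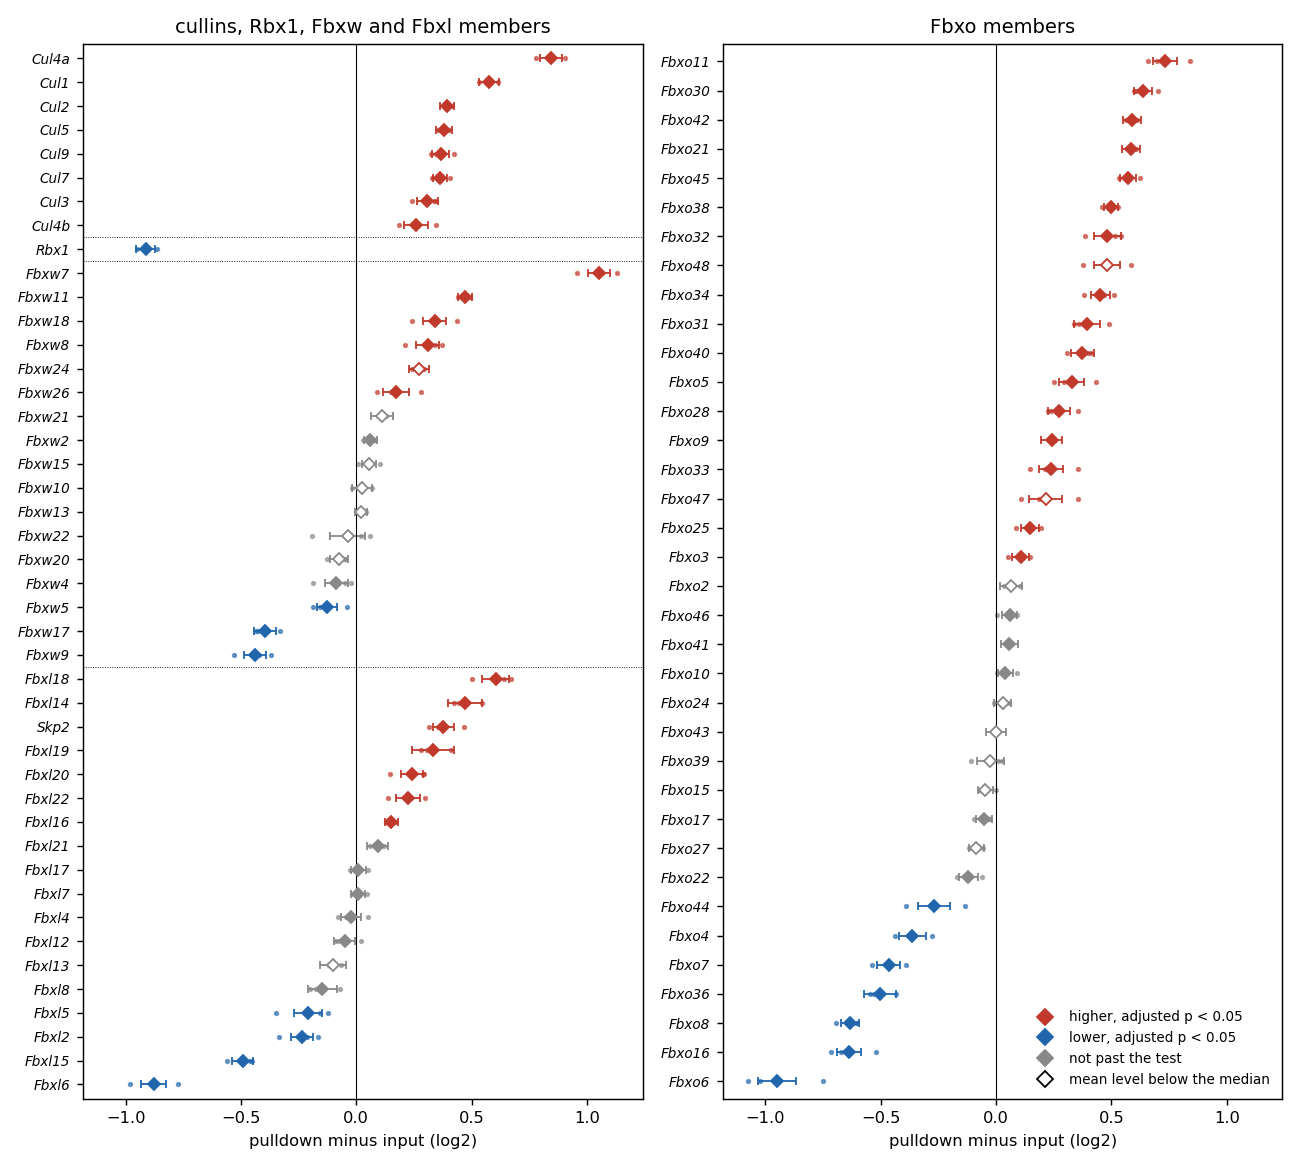
Difference between pulldown and input (log2, horizontal axis) for each of the 80 members, with the cullins, Rbx1, Fbxw and Fbxl genes on the left and the Fbxo genes on the right. Diamonds with bars are the difference and its SE, small points are each pulldown array minus the input mean, and open diamonds mark members with a mean level below 6.54. The 8 cullins all lie to the right of 0, from 0.26 to 0.84, while the F-box groups spread to both sides.

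All 8 cullins were higher in the pulldown, with a median difference of 0.37 and a range of 0.26 to 0.84. All 8 lay above the median level, where 45.9% of all genes were higher. Cul4a, a scaffold of ligases that act on chromatin and DNA repair factors through the adaptor DDB1, had log2 values of 9.63, 9.50 and 9.51 in the input and 10.39, 10.32 and 10.45 in the pulldown. Every pulldown value of Cul4a lay above every input value, and the difference of 0.84 ± 0.048 (SE) corresponds to 1.79-fold (limma adjusted p = 3.9e-06). Its close paralog Cul4b had values of 11.08, 11.11 and 10.98 in the input and 11.30, 11.40 and 11.24 in the pulldown. The groups did not overlap there either, although the nearest values of Cul4b lay 0.13 apart, and its difference was 0.26 ± 0.052 (adjusted p = 0.0041).

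Cul1, the scaffold of the SKP1 and F-box ligases, had values of 11.19, 11.18 and 11.07 in the input and 11.68, 11.76 and 11.72 in the pulldown. All 3 pulldown arrays were thus above the input, by 0.57 ± 0.043 or 1.49-fold (adjusted p = 1.6e-05). Cul2 and Cul5, which take substrates through elongin B and C, moved by similar amounts. Cul2 had values of 10.46, 10.52 and 10.43 in the input and 10.85, 10.86 and 10.88 in the pulldown, and Cul5 had 10.53, 10.56 and 10.46 in the input and 10.90, 10.92 and 10.87 in the pulldown. Neither gene's groups overlapped, and the differences were 0.39 ± 0.032 for Cul2 and 0.38 ± 0.034 for Cul5 (adjusted p = 2.5e-05 and 4.6e-05).

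Cul3, which binds BTB-domain receptors such as KEAP1, had values of 11.72, 11.81 and 11.68 in the input and 11.98, 12.08 and 12.07 in the pulldown, and its difference was 0.31 ± 0.045 (adjusted p = 0.00069). The groups did not overlap, with 0.17 between the highest input and the lowest pulldown value of Cul3. Cul7, which works with the F-box protein FBXW8, had values of 9.91, 9.92 and 9.94 in the input and 10.33, 10.27 and 10.25 in the pulldown. Cul9, the large cullin related to Cul7, had 7.46, 7.44 and 7.52 in the input and 7.80, 7.82 and 7.90 in the pulldown. Input and pulldown were separate for both genes, with differences of 0.36 ± 0.031 and 0.37 ± 0.038 (adjusted p = 3.2e-05 and 1.0e-04). Tested against a 1.2-fold change, 5 of the 8 cullins passed, and Cul3 (adjusted p = 0.59), Cul9 (0.060) and Cul4b (1.0) did not. Of all genes, 15.2% were higher when tested against that change. After cyclic loess all 8 cullins were still higher, from 0.16 to 0.73, and 38.2% of all genes above the median level were higher.

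Rbx1, the RING protein shared by most of these scaffolds, went the other way. Its values were 11.06, 11.01 and 10.94 in the input and 10.05, 10.08 and 10.14 in the pulldown, and each pulldown array lay at least 0.80 below each input array. The difference of -0.91 ± 0.040 is 1.88-fold lower (limma adjusted p = 1.2e-06). The other probe set of Rbx1, which had a lower mean, was also lower in the pulldown, at -0.51 (from 9.70 to 9.19, adjusted p = 0.0015 over all probe sets). Skp1, the adaptor between CUL1 and the F-box, had values of 10.99, 10.94 and 10.92 in the input and 10.59, 10.77 and 10.65 in the pulldown. Its groups did not overlap, and it was lower by a smaller amount, at -0.28 ± 0.049 (adjusted p = 0.0020).

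Scaffold and RING were also compared within arrays. The log2 value of Cul1 minus that of Rbx1 rose by 1.49 from input to pulldown, from 0.14 ± 0.025 to 1.63 ± 0.047 (SD, n = 3), and the exact permutation test of 3 against 3 arrays, 2-sided, gave p = 0.10. That is the smallest p the design allows, for this pair and for the 4 other pairs compared in this way, which were chosen after their values were seen, and adjustment over the 5 pairs leaves it at 0.10. Cul1 and Rbx1 were separate in opposite directions, so their p was fixed at that value in advance. Cul4a rose by 0.58 more than Cul4b, from -1.51 ± 0.086 to -0.92 ± 0.14 (SD, n = 3).

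**Figure D2:**
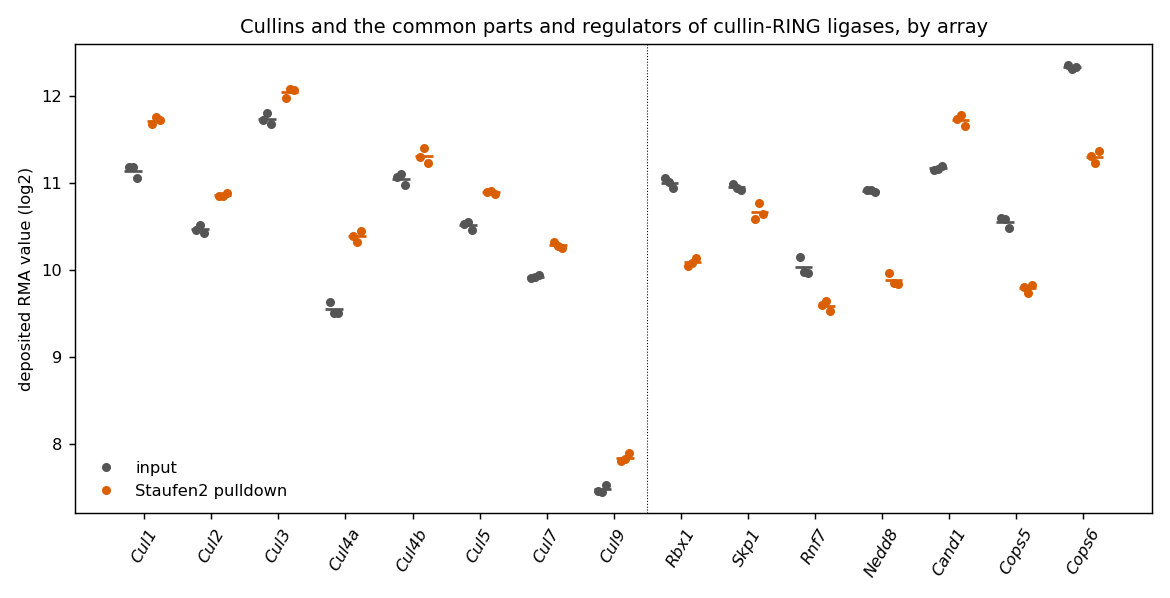
Deposited RMA values (log2, vertical axis) of the 8 cullins, left of the dotted line, and of Rbx1, Skp1, Rnf7, Nedd8, Cand1, Cops5 and Cops6, right of it. Points are single arrays, 3 input in grey and 3 pulldown in orange, and short lines are group means. Pulldown points lie above input points for each cullin and for Cand1, and below them for the other 6 genes. The genes right of the line are a selection, and Cops6 was chosen after its value was seen. Of the genes of NEDD8 attachment not shown, Dcun1d1, Dcun1d2, Dcun1d4 and Senp8 were called higher, Ube2f lower, and the rest did not pass. Of 9 COP9 signalosome genes 3 did not pass. The axis does not start at 0, and heights of different genes are not comparable.

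The Fbxw genes, whose proteins bind phosphorylated substrates through WD40 repeats, held the largest positive difference of all members. Of 17 Fbxw genes 6 were higher and 3 lower, and 8 did not pass, and after cyclic loess 5 were higher and 4 lower. Of the 10 above the median level, 50% were higher and 30% lower, near the 45.9% and 26.8% of all genes above it. Fbxw7, the receptor that sends cyclin E, MYC, JUN and the Notch intracellular domain to degradation, had values of 8.90, 8.83 and 8.87 in the input and 9.93, 9.82 and 10.00 in the pulldown. All pulldown arrays lay at least 0.93 above all input arrays, a difference of 1.05 ± 0.047 or 2.07-fold (limma adjusted p = 1.3e-06), and 1.27% of all genes had a more positive one. A further probe set of Fbxw7, below the median level (5.82 in the input), was higher by 0.32, and the mean of both probe sets by 0.69 (adjusted p = 2.5e-06).

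Fbxw11, which encodes the β-TrCP2 receptor for IκB and β-catenin, had values of 11.32, 11.29 and 11.35 in the input and 11.81, 11.76 and 11.81 in the pulldown. The groups were well apart for Fbxw11, at 0.47 ± 0.030 (adjusted p = 6.9e-06). Its paralog Btrc, which has no Fbx symbol and is therefore no member, was higher by 0.20 ± 0.035 (adjusted p = 0.0022), and by 0.09 after cyclic loess, where it did not pass (adjusted p = 0.077). Fbxw11 rose by 0.28 more than Btrc within arrays. The pair was chosen after its values were seen, and its exact permutation p of 0.10 is the smallest the design allows.

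Fbxw8, the F-box partner of CUL7, had values of 10.74, 10.64 and 10.68 in the input and 11.03, 10.90 and 11.06 in the pulldown and a difference of 0.31 ± 0.049 (adjusted p = 0.0012). With Cul7 at 0.36 and Obsl1, whose protein belongs to the CUL7 complex, at 0.39 ± 0.064 (adjusted p = 0.0014), these 3 mRNAs were called higher. Ccdc8, the other listed partner of CUL7, did not pass (0.01 ± 0.042, adjusted p = 0.88). Fbxw9 and Fbxw17 were the Fbxw genes with the largest negative differences. Fbxw9 had values of 10.42, 10.32 and 10.36 in the input and 9.95, 9.84 and 10.00 in the pulldown, without overlap, and was lower at -0.44 ± 0.048 (adjusted p = 0.00014). Fbxw17 had 8.39, 8.33 and 8.48 in the input and 7.98, 7.97 and 8.07 in the pulldown, also without overlap, at -0.40 ± 0.049 (adjusted p = 0.00027).

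Mouse has a tandem cluster of Fbxw genes. The gene table places 15 Fbxw genes on the chromosome that holds most of them, and 8 of these were members. Positions along that chromosome were not compared. Only Fbxw18 (8.34 in the pulldown) and Fbxw26 (6.46 in the input, 6.63 in the pulldown) had means above 6.54, and the others lay between 4.67 and 5.90. Of the 8, Fbxw18 (0.34), Fbxw24 (0.27) and Fbxw26 (0.17) were called higher, while the other 5 did not pass, with differences of -0.07 to 0.11. Among all genes, 45.9% of those above the median level and 9.2% of those below it were higher. These copies resemble each other, so single members are uncertain. A probe set listed for Fbxw14, Fbxw19, Fbxw22 and Fbxw28 together, which the member rule leaves out, went from 5.70 to 6.06 (difference 0.36, adjusted p = 0.0031 over all probe sets), and a probe set listed for Fbxw16 and Fbxw19 from 4.89 to 4.97.

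The Fbxl genes, with leucine-rich repeats, were called in both directions. Of 18 measured, 7 were higher and 4 lower, and 7 did not pass, with a median of 0.01. Of the 17 above the median level, 41.2% were higher and 23.5% lower, near the 45.9% and 26.8% of all genes above it. After cyclic loess 7 of the 18 were higher and 8 lower, with a median of -0.10. Skp2, the receptor for the CDK inhibitor p27, had values of 9.34, 9.38 and 9.41 in the input and 9.73, 9.84 and 9.69 in the pulldown. Its pulldown values were all higher, by 0.38 ± 0.044 or 1.30-fold (limma adjusted p = 0.00020). Fbxl18 had the largest positive difference among the Fbxl genes. Its values were 8.68, 8.83 and 8.83 in the input and 9.45, 9.28 and 9.42 in the pulldown, and its groups were separate, at 0.60 ± 0.059 (adjusted p = 7.5e-05).

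Fbxl20, known in neurons as SCRAPPER for its action on the synaptic protein RIM1, had values of 10.98, 10.90 and 10.94 in the input and 11.24, 11.09 and 11.23 in the pulldown, a difference of 0.24 ± 0.047 (adjusted p = 0.0035). Its paralog Fbxl2, named here after its values were seen, had 9.41, 9.48 and 9.40 in the input and 9.22, 9.10 and 9.27 in the pulldown and was lower, at -0.24 ± 0.049 (adjusted p = 0.0046). Input and pulldown did not overlap for either gene, and the calls were in opposite directions. The log2 value of Fbxl20 minus that of Fbxl2 rose by 0.48. With both genes separate and in opposite directions, its exact permutation p was fixed in advance at 0.10, the smallest the design allows.

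Fbxl6 was the Fbxl gene with the largest negative difference. Its values were 9.56, 9.62 and 9.57 in the input and 8.81, 8.60 and 8.70 in the pulldown, which put every pulldown array at least 0.75 below the input, at -0.88 ± 0.053 or 1.84-fold lower (adjusted p = 5.0e-06). Fbxl15, the receptor for the ligase SMURF1, had 8.68, 8.80 and 8.74 in the input and 8.28, 8.28 and 8.18 in the pulldown. It was lower without overlap, at -0.49 ± 0.045 (adjusted p = 5.0e-05). Fbxl5, the iron-sensing receptor that controls the iron regulatory protein IRP2, had values of 9.38, 9.33 and 9.43 in the input and 9.22, 9.03 and 9.26 in the pulldown. Its groups were close to each other, at -0.21 ± 0.061 (adjusted p = 0.025), and the call was lost without input replicate 1 (-0.21, adjusted p = 0.076) and without input replicate 3 (-0.18, adjusted p = 0.099). Ireb2, the gene of IRP2, was higher by 0.65 ± 0.038 (adjusted p = 4.3e-06).

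Among the Fbxo genes, the most varied group, 18 of 36 were higher and 7 lower, and 11 did not pass. After cyclic loess 14 were higher and 10 lower. Of the 28 above the median level, 57.1% were higher and 25% lower with the deposited values, against 45.9% and 26.8% of all genes above it. Fbxo11, a receptor for the transcription repressor BCL6, had the largest positive difference of this group. Its values were 10.89, 10.92 and 10.86 in the input and 11.55, 11.73 and 11.59 in the pulldown, and its difference was 0.73 ± 0.050 or 1.66-fold (limma adjusted p = 1.0e-05). Pulldown replicate 2 was the highest array for Fbxo11, and the lowest pulldown value still lay 0.63 above the highest input value.

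Fbxo30, known from muscle atrophy, had values of 9.92, 9.90 and 9.85 in the input and 10.49, 10.49 and 10.59 in the pulldown and was higher by 0.64 ± 0.038 (adjusted p = 5.1e-06). Fbxo32, the atrogin-1 ligase of muscle wasting, had 9.69, 9.62 and 9.51 in the input and 10.13, 10.00 and 10.15 in the pulldown, which is higher by 0.48 ± 0.058 (adjusted p = 0.00025). The groups were apart for both of these atrophy-related genes. Fbxo42 was higher by 0.59 ± 0.040, Fbxo21 by 0.59 ± 0.038 and Fbxo45 by 0.57 ± 0.035, with adjusted p-values of 9.8e-06, 7.5e-06 and 5.5e-06. FBXO45 is unusual in that it works with the large ligase MYCBP2 in place of CUL1. Fbxo38 was higher by 0.50 ± 0.030 (adjusted p = 5.4e-06), from a mean of 10.74 to 11.24, and Fbxo48 by 0.48 ± 0.055 (adjusted p = 0.00018), from 6.26, which is below the median of all values, to 6.75. Fbxo5, also called EMI1, inhibits the anaphase-promoting complex and had values of 7.61, 7.51 and 7.62 in the input and 7.88, 7.83 and 8.01 in the pulldown. It was higher without overlap, by 0.33 ± 0.054 (adjusted p = 0.0014).

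Fbxo6 had the largest negative difference of all 80 members. Its protein recognises the sugar chains of glycoproteins, and its values were 9.55, 9.49 and 9.49 in the input and 8.76, 8.48 and 8.43 in the pulldown. The pulldown arrays of Fbxo6 spread over 0.32, yet all lay at least 0.73 below the input, at -0.95 ± 0.081 or 1.93-fold lower (adjusted p = 3.3e-05). Fbxo44 and Fbxo2 are neighbours of Fbxo6 in the genome and encode related proteins. Fbxo44 had values of 8.34, 8.30 and 8.44 in the input and 8.23, 7.97 and 8.08 in the pulldown and was lower at -0.27 ± 0.068 (adjusted p = 0.012), a call that ended without input replicate 3 (-0.23, adjusted p = 0.058). Fbxo2, at 6.20 in the input and thus below the median of all values, did not pass (0.06 ± 0.049, adjusted p = 0.32). Fbxo17 (-0.05) and Fbxo27 (-0.09), the remaining genes of that family, did not pass either, and both were called lower after cyclic loess (-0.15 and -0.13). Fbxo44 minus Fbxo6 rose by 0.68 within arrays. That pair too was chosen after its values were seen, with the exact permutation p at the smallest value the design allows, 0.10.

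Fbxo7, mutated in a juvenile form of parkinsonism, had values of 9.40, 9.45 and 9.52 in the input and 8.99, 8.92 and 9.07 in the pulldown. It was lower without overlap, at -0.47 ± 0.048 or 1.38-fold (adjusted p = 1.0e-04). Fbxo8, whose protein carries a Sec7 domain of the kind that acts on ARF GTPases, had 10.63, 10.53 and 10.60 in the input and 9.99, 9.98 and 9.89 in the pulldown. Its arrays were tightly grouped and separate, at -0.63 ± 0.040 (adjusted p = 6.5e-06). Fbxo16 was lower at -0.64 ± 0.053, Fbxo36 at -0.50 ± 0.069 and Fbxo4 at -0.36 ± 0.059, with adjusted p-values of 2.8e-05, 0.00051 and 0.0013.

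Of the 26 members that did not pass, 13 lay above the median of all values. The 4 of these 26 with the highest mean level were Fbxo22, Fbxl17, Fbxw2 and Fbxl7. Fbxo22, a receptor for the histone demethylase KDM4A, had an input mean of 11.16 and a pulldown mean of 11.04 (-0.12 ± 0.043, adjusted p = 0.054), and was called lower after cyclic loess (-0.22, adjusted p = 0.0025). Fbxl17, which clears wrongly paired BTB proteins, stood at 10.93 and 10.94 (0.01 ± 0.034, adjusted p = 0.84), Fbxl7 at 10.34 and 10.35 (0.01 ± 0.031, adjusted p = 0.85), and Fbxw2 at 10.61 and 10.67 (0.06 ± 0.030, adjusted p = 0.13). After cyclic loess Fbxl17 and Fbxl7 had negative differences (-0.10 and -0.10) that passed the test. Fbxo31 was called higher (0.40 ± 0.057), but its other probe set went from 8.52 to 8.34 and did not pass (-0.18, adjusted p = 0.076 over all probe sets), so the direction of Fbxo31 is uncertain. Of the called members whose difference is not given above, Fbxw5 was lower (-0.13) and the others were higher, by 0.11 for Fbxo3 to 0.47 for Fbxl14.

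Other genes of the cullin-RING pathway were taken from lists of 157 genes, of which 154 were measured. Of these, 86 were higher and 27 lower, and 41 did not pass, with a median of 0.20. Of the 150 above the median level, 56.7% were higher and 18% lower, against 45.9% and 26.8% of all genes above it. After cyclic loess 78 were higher and 46 lower. Higher calls thus fell from 76.1% to 62.9% of the calls, and from 64.4% to 52.9% among all genes. Of 11 genes of NEDD8 attachment, 4 (Dcun1d1, Dcun1d2, Dcun1d4 and Senp8) were higher (36.4%), 3 lower (27.3%), and 4 missed the threshold. After cyclic loess 3 were higher and 5 lower. Nedd8 went from 10.91 to 9.88, lower at -1.03 ± 0.039 or 2.04-fold (limma adjusted p = 6.8e-07). Rnf7, the RING protein that pairs with CUL5, was lower at -0.45 ± 0.055 (adjusted p = 0.00028).

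Of the 9 measured subunit genes of the COP9 signalosome, 6 were lower and 3 did not pass, with a median of -0.41. That is 66.7% lower, against 26.8% of all genes above the median level. After cyclic loess all 9 were called lower, against 35.5% of all genes above that level. Cops5, the subunit that cuts NEDD8 off cullins, had values of 10.60, 10.59 and 10.48 in the input and 9.81, 9.74 and 9.83 in the pulldown, which do not overlap, and stood at -0.76 ± 0.043 (adjusted p = 3.7e-06). Cops6, chosen after its value was seen, stood at -1.03 ± 0.040. In the same list Cand1, the exchange factor, had values of 11.16, 11.16 and 11.20 in the input and 11.74, 11.79 and 11.66 in the pulldown. It was higher without overlap, by 0.56 ± 0.038 (adjusted p = 1.0e-05), as was Cand2 (0.30).

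Among the called adaptors and receptors of the other cullins, most were higher. Of all genes above the median level 45.9% were higher and 26.8% lower, so most of their calls (63.2%) were higher too. Of 33 BTB adaptors of CUL3, 23 were higher (69.7%) and 3 lower (9.1%), with a median of 0.31, and 21 and 5 after cyclic loess. Among them Keap1, the sensor that holds NRF2 in check, was higher by 0.22 ± 0.049 (adjusted p = 0.0071), a call that ended after cyclic loess (0.11, adjusted p = 0.077), and Klhl11 by 0.60 ± 0.043 (adjusted p = 1.4e-05). Of 24 genes of DDB1 and the receptors of CUL4, 12 were higher (50%) and 3 lower (12.5%), and 12 and 9 after cyclic loess. Ddb1 was higher by 0.26 ± 0.028 and Dcaf7 by 0.44 ± 0.043 (adjusted p = 0.00012 and 6.8e-05).

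Of 34 elongin genes and receptors of CUL2 and CUL5, 19 were higher and 9 lower, and 18 and 11 after cyclic loess. With the deposited values that is 55.9% and 26.5%, against 45.9% and 26.8% of all genes above the median level. The small adaptors Elob (elongin B) and Eloc (elongin C) were lower, at -1.11 ± 0.037 and -0.35 ± 0.028 (adjusted p = 4.6e-07 and 2.4e-05), whereas Vhl, the receptor for hypoxia-inducible factors, was higher by 0.37 ± 0.052 (adjusted p = 0.00059).

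Of the 5 F-box genes without an Fbx symbol, all above the median level, 4 were higher and Lrrc29 did not pass, and 3 were higher after cyclic loess. Among all genes above that level 45.9% were higher, and 38.2% after cyclic loess. Kdm2a, a histone demethylase with an F-box, was higher by 0.90 ± 0.031 (adjusted p = 4.7e-07) and Ccnf (cyclin F) by 0.23 ± 0.044 (adjusted p = 0.0033). Of 6 ubiquitin-conjugating enzymes, also above the median level, 1 was higher (16.7%) and 2 lower (33.3%), and 0 and 2 after cyclic loess. Of all genes above that level 26.8% were lower, and 35.5% after cyclic loess. Cdc34, the enzyme known for its work with CUL1 ligases, did not pass (0.02 ± 0.037, adjusted p = 0.74). Of 27 genes whose proteins are described as substrates of F-box ligases, 20 were higher and 1 (Cdt1, -0.39, named after its value was seen) was lower, and 18 and 5 after cyclic loess. With the deposited values that is 74.1% and 3.7%, against 45.9% and 26.8% of all genes above the median level. Cdkn1b, the p27 substrate of SKP2, was higher by 0.42 ± 0.030, Myc, a substrate of FBXW7, by 0.52 ± 0.043, and Nfkbia, a substrate of the β-TrCP proteins, by 0.47 ± 0.045 (adjusted p = 1.2e-05, 2.9e-05 and 6.4e-05).

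**Figure D3:**
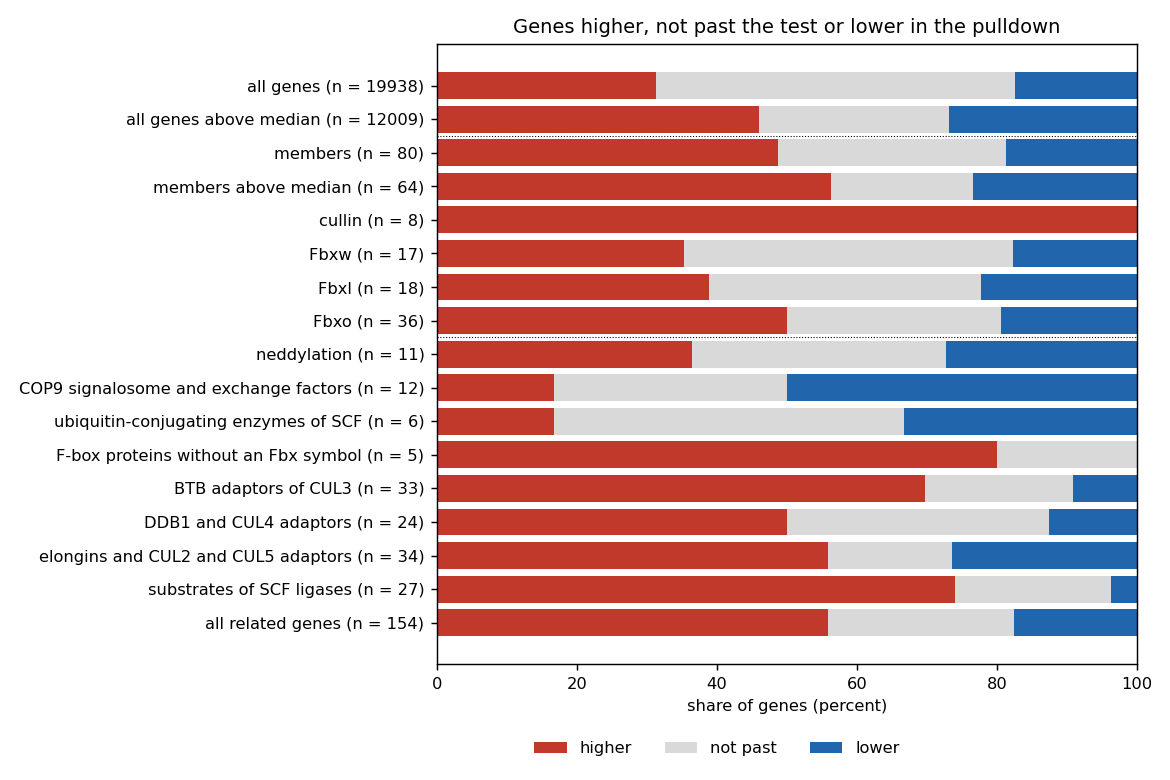
Share of genes (percent, horizontal axis) called higher (red), not past the test (grey) or lower (blue) in the pulldown, for all genes, for the members and their groups between the dotted lines, and for the lists of related genes below them. All 8 cullins are red, and the list with the largest blue share is that of the COP9 signalosome and exchange factors, with 6 of 12 lower.

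The length of the genes went with part of this spread. All 80 members matched the reference gene table, which gives the genomic span, a coarse measure of the size of an RNA since it includes introns. Across the 64 members above the median level, Spearman's rank correlation between span and difference was 0.32, against 0.48 across the 11989 genes above that level with a span, and since genes are not independent replicates no p is given. Of the 32 longer members (above the median span of 30.4 kb) 20 were higher and 6 lower, and of the 32 shorter ones 16 and 9. Of all genes above the median level, whatever their span, 45.9% were higher and 26.8% lower. The same split by span was not counted for all genes, so these counts have no background of like length. The largest negative differences were in short genes, with Fbxo6 spanning 6.42 kb, Rbx1 10.1 kb and Fbxl6 3.02 kb, and the largest positive difference in a long gene, Fbxw7 at 164 kb.

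Single members departed from that order. Fbxl17 and Fbxl7 have the longest spans of all members (458 and 355 kb) and did not pass the test. Fbxo8, Fbxo16 and Fbxo36 were lower although they span 42.8, 57.4 and 60.6 kb, like most cullins. Fbxl14 was higher (0.47) with a span of 4.22 kb, and Cul7, the shortest cullin gene at 14 kb, was higher by as much as Cul9 at 45.8 kb (0.36 against 0.37). The part of RNA length in these differences was not tested.

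**Figure D4:**
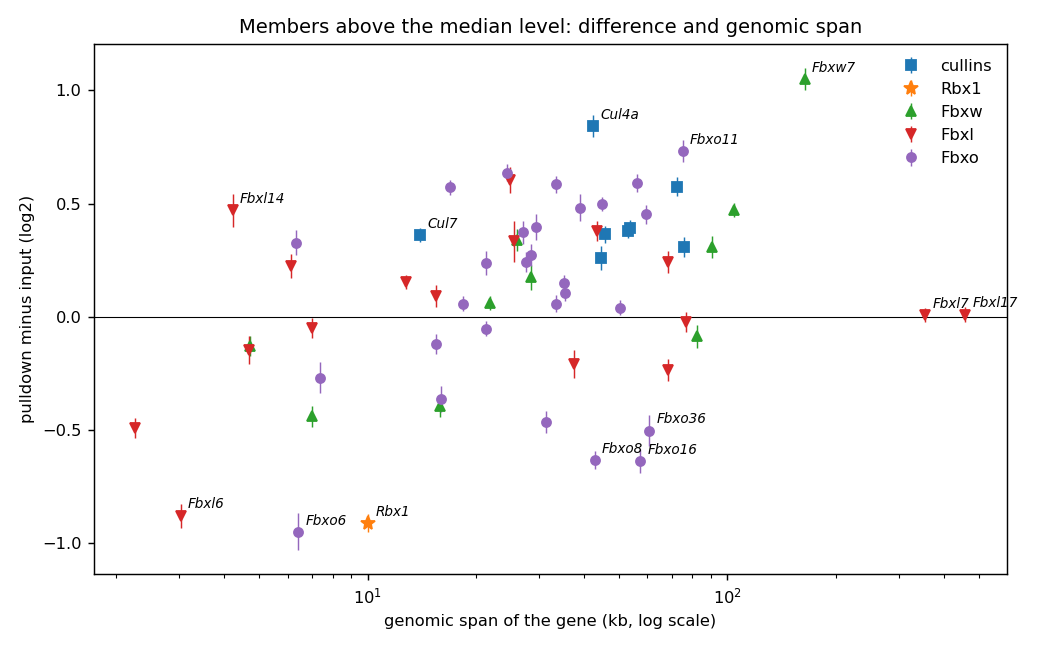
Difference between pulldown and input (log2 with SE, vertical axis) against the genomic span of the gene (kb, log scale, horizontal axis) for the 64 members above the median level. Symbols mark the cullins, Rbx1 and the Fbxw, Fbxl and Fbxo genes. Fbxo6, Rbx1 and Fbxl6 lie at the lower left and Fbxw7 at the upper right, while Fbxl7 and Fbxl17 lie far right near 0.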

How the data were processed

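The deposited data were log2 expression values, a column per array, which the authors computed with RMA according to the submitters' processing notes. The notes list limma too, and tool versions were not stated there. Of 35556 probe sets, 21789 had 1 gene symbol in the platform annotation, and the brightest of a gene over all 6 arrays was kept. Differences were fitted with limma 3.58.1 in R 4.3.3 (2-sided, moderated, no covariates) and adjusted over 19938 genes. On simulated data with known changes the fit called 192 genes, of which 8 were unchanged. Those data held far fewer changed genes than were called here, and independent noise, so they do not bear on the normalization. Precision is limited by the number of arrays. Replicate numbers were not taken as pairs (correlations of same-numbered deviations 0.024, 0.11 and -0.060). The members, lists and rules were chosen with earlier results of these data known. Genomic spans came from RefSeq's gene table for GRCm38.p6. Figures were drawn with matplotlib 3.10.9.

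Named in any case were the cullins, Rbx1, Skp1a, Skp2 and a set of F-box genes, of which 1 is not reported here. Added were the 12 largest differences each way among called members without overlap whose mean in the higher group lay above the median. For those members, a call and the lack of overlap were thus conditions of naming. The 4 brightest members that did not pass were added too, with a set of related genes. Other genes were named after their values were seen. Alternatives are listed with their effect in the closing section.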

Additional observations from a re-analysis of the deposited data

How the results depend on the processing

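The alternatives were a replicate block, an intensity trend, cyclic loess, centring on bright probe sets, array weights, only genes above the median level, averaged probe sets per gene, a 1.2-fold minimum, ordinary in place of moderated statistics, and each array left out. Tested against a 1.2-fold change, 18 members were higher and 9 lower, 47 and 15 related genes, and 3034 and 1822 of all genes. After cyclic loess 23 members and 46 related genes were lower. The median of the members was 0.038 after cyclic loess, 0.058 after centring and 0.20 among genes above the median level, and 0.089 to 0.11 with each array left out, where 34 to 38 members were higher and 13 to 15 lower. The replicate block gave 38 and 16 members and changed 2 of their calls, and the numbers were not shown to pair the samples. Of the named genes, Fbxl17 (-0.10) and Fbxl7 (-0.10) turned negative after cyclic loess and passed as lower. Counted per gene and alternative, 24 calls of named genes were lost, 17 of them against a 1.2-fold change. Fbxo22 gained a call in 7 alternatives. The cause of these changes was not tested, except that the 1.2-fold test asks for more by construction. Equal labelling and 3 arrays per group limit what can be read.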
